A study of Chlamydomonas reinhardtii with 3 samples.

Results

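The carbonic anhydrase genes CAH1 to CAH5 of the green alga Chlamydomonas reinhardtii were described by their cytosine methylation in wild type and in cmd1 knockout (cmd1 KO) cells. They were taken by locus identifier, and all 5 were found among 17527 gene entries, of which 17326 had a methylation level in both genotypes. CAH1 is Cre04.g223100 and CAH2 is Cre04.g223050, neighbouring genes on chromosome 4. CAH3 is Cre09.g415700 on chromosome 9, and CAH4 (Cre05.g248400) and CAH5 (Cre05.g248450) are neighbours on chromosome 5. The series asks whether cytosine methylation changes without CMD1, an algal homolog of the TET enzymes that oxidise methylated cytosine in animals.

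Genomic DNA was read by whole-genome bisulfite sequencing, in which unmethylated cytosine is converted and read as thymine. There was 1 library of wild type and 2 of cmd1 KO, all of strain CC125. Both genotypes were kept at 25 °C under 20 μmol photons per square metre and second in an acetate medium. They were then placed in Sueoka's high salt medium under 300 μE, which the labels call high light. The labels say nothing of how the knockout was made, of the number of clones, of the CO2 supply or of the time in high light. The libraries of the knockout are deposited as 1 column, and whether it holds a mean, pooled reads or a single library is not stated. Each gene thus has 1 value per genotype, with no spread between replicates and no test between genotypes.

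Carbonic anhydrases interconvert CO2 and bicarbonate, and in this alga they serve the carbon concentrating mechanism, which raises CO2 around the carboxylating enzyme Rubisco when CO2 is scarce. CAH1 and CAH2 are closely similar alpha-type enzymes secreted to the periplasm. CAH1 is known for its strong induction in low CO2, while CAH2 is the form expressed in high CO2. CAH3 is an alpha-type enzyme of the thylakoid lumen and is needed for growth in low CO2. CAH4 and CAH5 are nearly identical beta-type enzymes of mitochondria, also induced in low CO2.

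All 5 genes carried little methylation in wild type, from 0.17% to 1.21%, and each had a higher deposited level in cmd1 KO, from 2.78% to 6.43%. A level is the authors' mean over the sites listed for a gene, and the read depth behind it is unknown. Unconverted cytosine also reads as methylated. How much of these low levels it makes up was not tested, since no conversion rate was used here. The same direction was found in 99.1% of all genes, so it does not set these genes apart. The medians over all genes were 1.05% in wild type and 5.89% in the knockout. The wild type level of 4 of the 5 genes was below that median, CAH3 being the exception, and the cmd1 KO level of 3 of the 5 was below it. Every wild type level lay below every cmd1 KO level in the 5 genes.

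**Figure D1:**
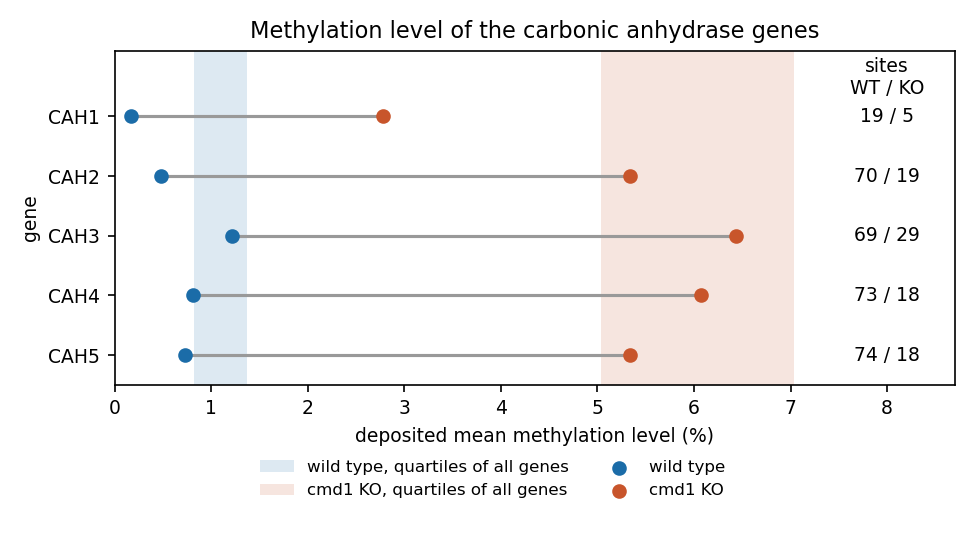
Deposited mean methylation level in percent (x axis) of CAH1 to CAH5 (y axis) in wild type (blue) and cmd1 KO (orange), with bands for the quartiles of all 17326 genes and the numbers of listed sites at the right. CAH1 lies outside both bands, at 0.17% and 2.78%, and CAH3 lies inside both, at 1.21% and 6.43%.

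The periplasmic pair held the lowest wild type levels. In CAH1 the wild type level was 0.17%, a mean over 19 sites, and the cmd1 KO level was 2.78%, a mean over 5 sites. Only 72 of the 17326 genes were lower in wild type and only 17 were lower in cmd1 KO, which places CAH1 near the bottom of both distributions. Its site numbers were also among the smallest. The wild type number exceeded that of 1.61% of genes, and 5 is the fewest cmd1 KO sites at which any gene has a level, a number that 88 genes share. Whether the small lists have a part in the low levels was not tested. Among the 21 genes with 19 wild type sites, CAH1 had the lowest level, and their median was 1.55%. Among the 88 genes with 5 cmd1 KO sites, 2 were lower and the median was 4.98%. A single further cmd1 KO site at 0 would bring the CAH1 level from 2.78% to 2.32%, whereas it would bring CAH3 from 6.43% to 6.22%.

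In CAH2 the wild type level was 0.48%, from 70 sites, a level below that of all but 4.25% of genes. Its list was not unusually short, since 35.9% of genes had fewer wild type sites. Of the 201 genes with 70 wild type sites, 5 were lower, and the median was 1.07%. Its cmd1 KO level was 5.34%, from 19 sites, above 33.8% of genes. Its low place in wild type was thus not matched in cmd1 KO, while CAH1 was low in both.

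The lumenal enzyme gene CAH3 was near the middle of all genes. The wild type level was 1.21%, from 69 sites, above 64.4% of genes. The cmd1 KO level was 6.43%, from 29 sites, above 63.8% of genes. CAH3 had the highest level of the 5 in both genotypes. It was also the only one with more cmd1 KO sites than the median gene, which had 26.

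The mitochondrial pair gave like values. For CAH4 the levels were 0.81% in wild type, from 73 sites, and 6.07% in cmd1 KO, from 18. For CAH5 they were 0.73%, from 74 sites, and 5.34%, from 18. Both were in the lower part of the wild type distribution, above 24.0% and 17.0% of genes. In cmd1 KO, CAH4 was above 55.1% and CAH5 above 33.9% of genes.

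From lowest to highest, the order was CAH1, CAH2, CAH5, CAH4 and CAH3 in both genotypes. Neighbours in this order cannot be told apart by a replicate spread, which the table does not hold. The cmd1 KO levels of CAH2 and CAH5 were 0.0020 points apart. A change of 0.1% at a single site, the step in which site levels are given, would move the CAH5 level by 0.0056 points. Their order in cmd1 KO is therefore within 1 step of the deposited values.

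**Figure D2:**
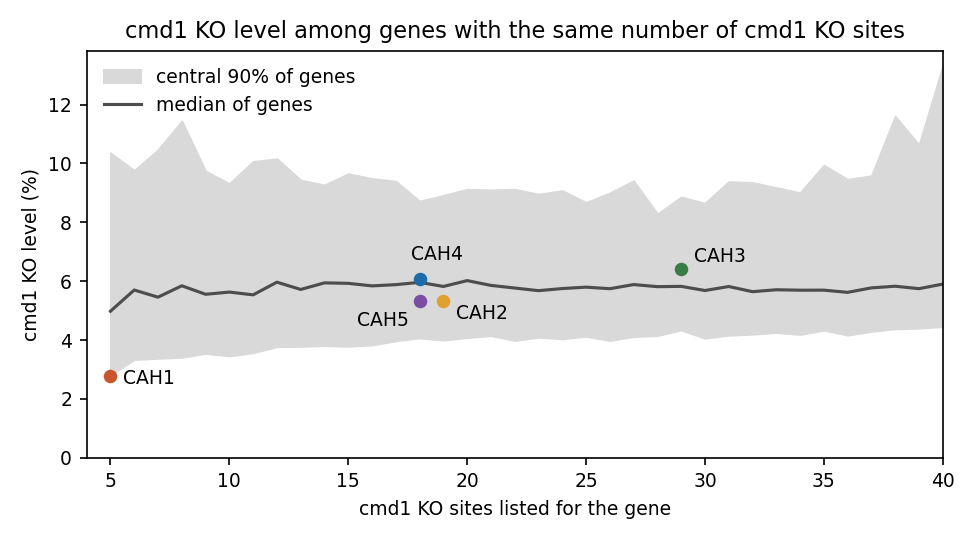
Deposited cmd1 KO level in percent (y axis) against the number of cmd1 KO sites listed for a gene (x axis, up to 40), with the 5 carbonic anhydrase genes as points, the median of all genes as a line and the central 90% of genes as a band. CAH1, at 5 sites and 2.78%, lies at the left edge just below the band, whose lower border there is 2.82%. The other carbonic anhydrase genes lie within the band, close to the median line.

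The differences between genotypes lay near the middle of all genes in CAH2 to CAH5, and near the bottom in CAH1. The cmd1 KO level was higher by 2.61 points in CAH1, 4.86 in CAH2, 5.22 in CAH3, 5.26 in CAH4 and 4.61 in CAH5. Their median was 4.86 points, beside 4.73 over all genes, and 3 of the 5 exceeded the latter. None of the 5 differed by 10 points, a size that 3.50% of all genes reached upwards and 0.0923% downwards, and none differed by 20 points, which 0.404% of all genes reached upwards. CAH3 and CAH4 differed by at least 5 points, 2 of 5 genes, and 41.7% of all genes did so. With 1 value per genotype, none of these differences has an error.

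Difference and ratio ranked CAH1 at opposite ends. Its difference was larger than that of only 3.37% of genes, while its ratio of cmd1 KO to wild type level, 16.0, was larger than that of 98.0% of the 17293 genes with a wild type level above 0. The ratio was 11.1 in CAH2, above 93.7% of genes, and 5.30 in CAH3, above 45.6%. CAH4 had a ratio of 7.51 and CAH5 of 7.30, against a median of 5.52 over all genes. The ratio of CAH1 rests on a wild type level of 0.17% and on 5 cmd1 KO sites.

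When p in the authors' deposited table was adjusted by Benjamini-Hochberg over all 17326 genes, all 5 genes passed 0.05 with the higher level in cmd1 KO. Of all genes, 97.6% passed in that direction and 0.242% in the other, so the share of the members is near the background. With Bonferroni adjustment 4 of the 5 passed, all but CAH1, beside 84.8% of all genes. The adjusted p was 5.87e-04 for CAH1, the largest of the 5, and 3.83e-13 for CAH2, the smallest, in the authors' deposited table after that adjustment. It was 6.52e-10 for CAH3, 3.42e-10 for CAH4 and 1.04e-10 for CAH5 by the same adjustment of the authors' deposited table. The labels and the file do not name the test behind these p-values, and with 1 column per genotype they do not measure a spread between replicates.

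The lists of sites were much shorter in cmd1 KO than in wild type. If every site of a gene had a level of its own, in steps of 0.1%, the mean could not fall below a bound set by the number of sites. For CAH2 that bound is 3.45% in wild type, and the deposited 0.48% lies below it, so sites with equal levels must be present. The wild type levels of all 5 genes lay below their bounds, as did those of 91.3% of all genes. None of the 5 cmd1 KO levels did, and neither did that of any other gene. The bound grows with the number of sites and is compared with the level, so this contrast restates the site numbers and levels. It cannot tell how sites were listed. Whether sites with equal levels were left out of the cmd1 KO lists was not tested. For CAH1 the bounds were 0.90% in wild type and 0.20% in cmd1 KO. The cmd1 KO list was shorter in each of the 5 genes, at 0.24 to 0.42 of the wild type number, against a median of 0.31 over all genes.

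The level multiplied by the number of sites gives the summed methylation of the listed sites, which does not depend on how many sites at 0 were kept. It would be larger with any sites above 0 that were left out, and whether there were such sites was not tested. In wild type the sum was 3.3% in CAH1, 33.6% in CAH2, 83.7% in CAH3, 59.0% in CAH4 and 54.1% in CAH5. All 5 sums were below 100%, so none of the listed wild type sites of these genes can have been fully methylated, and no site of CAH1 can have exceeded 3.3%. Wild type sums below 100% were found in 58.7% of all genes. A sum can only grow with the number of sites, and all 5 genes had fewer wild type sites than the median gene, which had 82. In cmd1 KO the sums were 13.9%, 101.4%, 186.5%, 109.3% and 96.1% in the same order. Of these, 2 of 5 were below 100%, beside 23.5% of all genes. The sum for CAH1 was thus small in cmd1 KO too, and only 0.0173% of genes had a smaller one. It is taken over 5 sites, the fewest at which any gene has a level. Of the 88 genes with that number, 2 had a smaller sum.

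The cmd1 KO sum was larger than the wild type sum in each of the 5 genes, and in 92.9% of the 17293 genes with a wild type level above 0. A sum can also grow with the number of methylated sites covered, and there were 2 libraries of cmd1 KO and 1 of wild type. Whether this raised the cmd1 KO sums was not tested. The ratio of the sums was 4.21 in CAH1, 3.02 in CAH2, 2.23 in CAH3, 1.85 in CAH4 and 1.78 in CAH5, beside a median of 1.71 over all genes. The periplasmic pair stood highest, above 95.4% and 89.1% of genes, and the mitochondrial pair stood near the middle, above 58.7% and 54.0%. For CAH1 it rests on a wild type sum of 3.3% and on 5 cmd1 KO sites. The ratio of the sums is also the number of cmd1 KO sites per wild type site at which the mean levels would be equal, if all missing cmd1 KO sites stood at 0. CAH1 would need 80.0 such sites and CAH2 211, where the table lists 5 and 19. CAH3 would need 154, CAH4 135 and CAH5 131. Among the 150 genes whose wild type level was at least 40%, the table lists a median of 1.52 cmd1 KO sites per wild type site, with a 95th percentile of 2.02. The ratio of the sums exceeded 1.52 in all 5 genes and in 63.0% of all genes. It exceeded 2.02 in CAH1, CAH2 and CAH3 and in 33.6% of all genes.

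**Figure D3:**
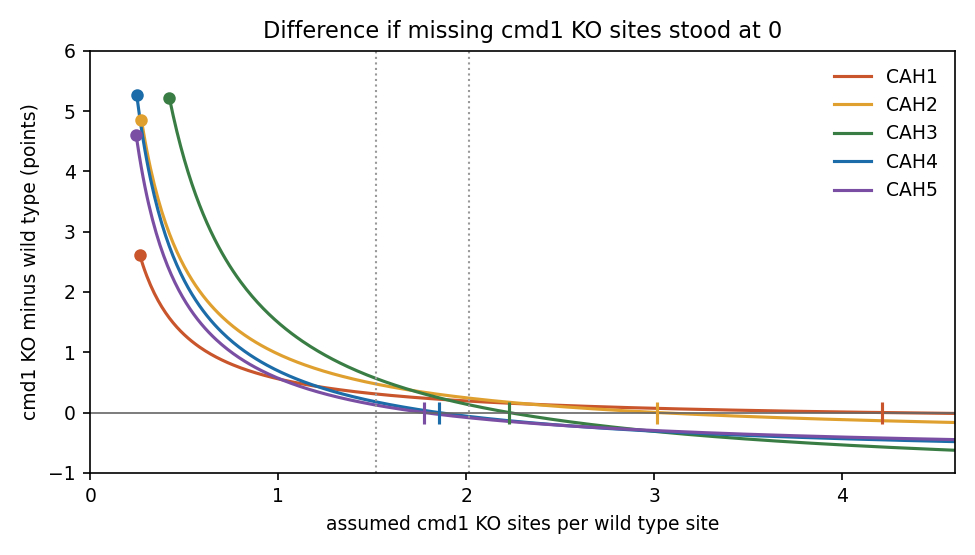
Difference between the cmd1 KO and the wild type level in percentage points (y axis) if missing cmd1 KO sites stood at 0, against the assumed number of cmd1 KO sites per wild type site (x axis), for CAH1 to CAH5. Dots mark the deposited values, vertical ticks mark where the levels would be equal (from 1.78 in CAH5 to 4.21 in CAH1), and dotted lines mark 1.52 and 2.02 sites per wild type site.

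Counted over as many sites as in wild type, with missing sites at 0, the cmd1 KO levels would be 0.73% in CAH1, 1.45% in CAH2, 2.70% in CAH3, 1.50% in CAH4 and 1.30% in CAH5. The differences would then run from 0.56 points in CAH1 to 1.49 in CAH3, against a median of 0.74 over all genes. CAH3 and CAH2 would lie above 81.3% and 63.8% of genes, and CAH1, CAH4 and CAH5 below the middle. These are the lowest levels that a list of the wild type length could give.

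The gene copies differed unequally. CAH1 and CAH2 were 0.31 points apart in wild type, where the median gap over 16936 pairs of adjacent loci was 0.38, and 2.56 points apart in cmd1 KO, where it was 1.39. The gap in cmd1 KO was larger than that of 73.8% of adjacent pairs, and the gap in wild type larger than that of 41.9%. As a ratio the order was opposite, since the CAH2 level was 2.76 times that of CAH1 in wild type and 1.92 times in cmd1 KO. CAH2 had 3.68 times the wild type sites and 3.80 times the cmd1 KO sites of CAH1. CAH4 and CAH5 were 0.077 points apart in wild type and 0.73 in cmd1 KO, gaps larger than those of only 11.1% and 29.0% of adjacent pairs. Their site numbers differed by 1 in wild type and by 0 in cmd1 KO. Reads can be shared between near-identical copies, so the separate values of CAH1 and CAH2, and of CAH4 and CAH5, are uncertain. The labels do not say how such reads were counted.

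The 5 loci on each side of these genes in annotation order were compared with them. Levels were available for 28 of the 30 loci, and the cmd1 KO level was higher in all 28. Around CAH1 and CAH2, the 10 neighbours ranged from 0.53% to 1.57% in wild type, so both genes lay below all of them. CAH1 also lay below all 10 in cmd1 KO, where they ranged from 4.76% to 10.5%, and had fewer sites than any of them in both genotypes. CAH2 lay above 3 of the 10 in cmd1 KO. The locus directly after CAH1 had a wild type level of 1.40%, from 74 sites, and a cmd1 KO level of 10.3%, from 30, the second largest difference of the 10 at 8.94 points.

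CAH3 lay among its neighbours, above 6 of 10 in wild type and 5 of 10 in cmd1 KO. The adjacent locus before it had a lower wild type level, 0.66%, and a higher cmd1 KO level, 9.26%. Around CAH5 and CAH4, 8 neighbours had a level, whose median was 1.08% in wild type and whose cmd1 KO median was 8.27%. CAH5 and CAH4 lay above only 1 and 2 of the 8 in cmd1 KO. Of all 28 loci only Cre05.g248700, the fifth before CAH5, differed by at least 10 points, with a wild type level of 2.04%, from 110 sites, and a cmd1 KO level of 17.9%, from 45. The shares of 28 loci and of all genes past that size were not compared by a test.

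**Figure D4:**
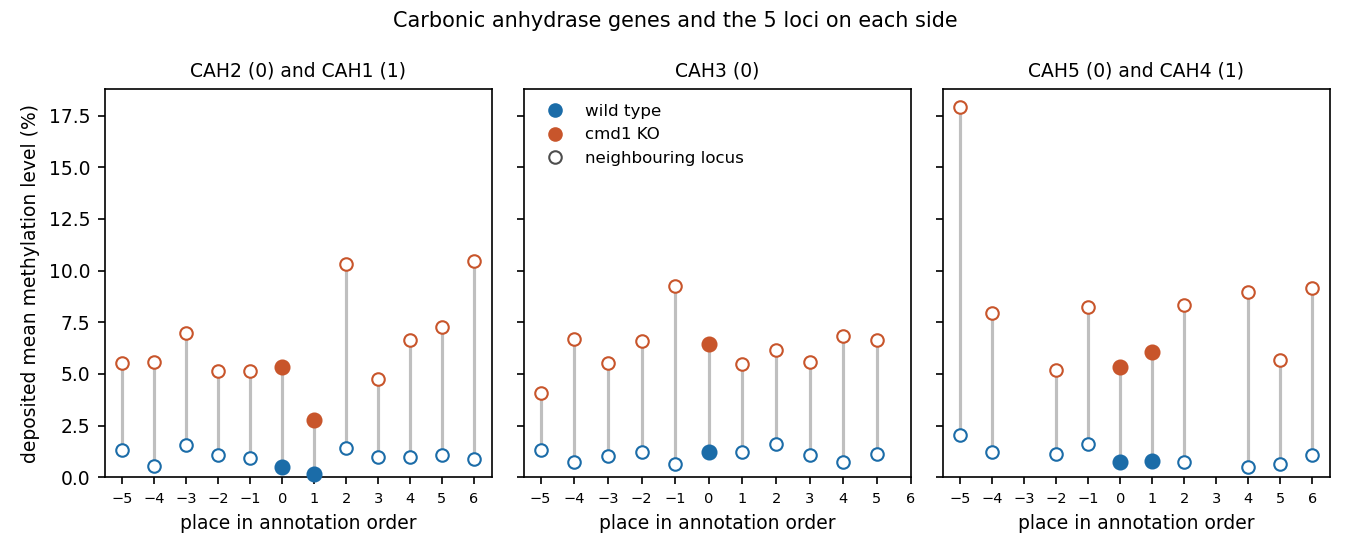
Deposited mean methylation level in percent (y axis) in wild type (blue) and cmd1 KO (orange) for the carbonic anhydrase genes (filled) and the 5 loci on each side (open), by place in annotation order counted from the first gene of each panel (x axis). CAH1, at place 1 in the left panel, is the lowest locus of its panel in both genotypes, and the fifth locus before CAH5 reaches 17.9% in cmd1 KO.

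Many genes had nearly the same values as the mitochondrial and lumenal enzymes, and almost none had those of CAH1. Likeness was measured as the distance between genes over the wild type and cmd1 KO levels, in percentage points. Within 0.1 points lay 136 other genes for CAH5, 127 for CAH4, 120 for CAH3 and 47 for CAH2, but 1 for CAH1. The closest genes of all were Cre12.g534000, which stood 0.0029 points from CAH5, and Cre16.g684700, which stood 0.0033 points from CAH4. Over 2 values per gene, such likeness is a description of levels only.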

How the data were processed

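The submitters' processing notes name Trimmomatic 0.36, FastQC 0.11.5 and BSMAP. Unmethylated lambda DNA was added at about 2% before shearing to fragments near 300 bp and bisulfite conversion of some 500 ng, per the labels' protocols. Neither labels nor file name the genome build, coverage minimum, cytosine contexts or region per gene, and lambda conversion rates were not used here.

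The table holds deposited counts of sites, not of reads, per the file headers, and methylation levels deposited as a fraction, given here in percent. Level times site number came to whole steps of 0.1% in 100% of genes, with a tolerance of 0.0001%. The deposited difference is a score in which wild type is subtracted from cmd1 KO. The deposited fold is a ratio. The deposited p-value was taken as unadjusted, which its header does not state. Depth is unknown, so no interval for a level is given.

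The 201 entries without a level were left out. Percentiles are shares of the remaining genes with a smaller value. The deposited p-values were adjusted by the Benjamini-Hochberg method over all genes with Python 3.11.15, numpy 2.4.6 and pandas 2.3.3, after the computations were tested on simulated data. The planned limma fit could not be run because the cmd1 KO libraries share 1 column. Members, lists and tests were chosen with earlier results of these data known. The names CAH1 to CAH5 come with the locus identifiers from the published nomenclature. Of the 17527 identifiers, 17525 matched a RefSeq table (assembly Chlamydomonas_reinhardtii_v5.5). It holds a symbol for 0 of them and was used for chromosomes and the order of loci only. A list of 12 other carbon concentration genes could therefore not be named, and the list as a whole has no result. Some of its loci lie among the neighbours of CAH1 and CAH2 and are counted there without a name. Named genes were the members, any neighbour with a difference of 10 points or more, and the 2 genes closest in level to any member. Alternatives were other sizes, a minimum of 20 sites, centring, other denominators, pseudocounts and other adjustments.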

Additional observations from a re-analysis of the deposited data

How the results depend on the processing

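The cmd1 KO level was higher in all 5 genes as deposited. With each column centred on the common median, which takes 4.83 points from every difference, the differences became -2.23 points in CAH1, 0.025 in CAH2, 0.39 in CAH3, 0.43 in CAH4 and -0.22 in CAH5, with a median of 0.025. With the wild type site number as denominator where larger, they were 0.56, 0.97, 1.49, 0.69 and 0.57 points in the same order, with a median of 0.69. Both other denominators were chosen after seeing the data. At 1.52 times the wild type number the differences were 0.31, 0.47, 0.56, 0.18 and 0.12 points, with a median of 0.31. At 2.02 times it they were 0.19, 0.24, 0.13, -0.065 and -0.087 points, with a median of 0.13. Missing sites count as 0 under these denominators, so the values fall by construction. A minimum of 20 sites in both columns left CAH3 alone, with a median difference of 5.22 points and 1 gene past the adjusted threshold in place of 5. The size of 5 points was reached by 2 genes, and those of 10 and 20 points by 0. Bonferroni adjustment of the deposited p-values left 4 genes past 0.05, without CAH1. With a pseudocount of 0.1 and 0.5 points, which cannot change its sign, the log2 ratio of CAH1 was 3.40 and 2.28. The small number of listed sites, such as 5 in cmd1 KO for CAH1, and the unknown read depth limit the levels. No paired analysis was possible, with 1 wild type library and the cmd1 KO libraries in 1 column. The shared column also prevented leaving out a library.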
